A study of Mus musculus with 8 samples.

Results

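Sox genes encode transcription factors that bind DNA through a shared HMG box, and they fall into lettered subgroups by sequence. In the developing neural tube the SoxB1 factors Sox1, Sox2 and Sox3 keep progenitors dividing and undifferentiated, and the SoxB2 factor Sox21 acts against them. The SoxC factors Sox4 and Sox11 are switched on as cells leave the cycle and activate genes of young neurons. Sox5, a SoxD factor, and the SoxE factors Sox8, Sox9 and Sox10 are known from neural crest, glia and cartilage. The 10 genes named here were measured by 35 probe sets of a mouse expression array, out of 45037 non-control probe sets and 18193 genes, and were taken as every probe set whose platform annotation names 1 of the 10 alone.

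Total RNA came from mouse embryoid bodies, aggregates of differentiating embryonic stem cells, kept in suspension for 2 days before treatment. In the 4 baseline samples (replicates 1 to 4) bodies received 500 nM retinoic acid, which directs them to a hindbrain and spinal cord fate. In the 4 induced samples (replicates 5 to 8) bodies received 500 nM retinoic acid and 1 uM of the Hedgehog (Hh) agonist HH-Ag, which switches on the pathway that patterns the ventral neural tube. For 7 of the 8 samples, controls included, the labels give YFP3.1 cells with a constitutively expressed Gli1FLAG, a tagged Hh pathway transcription factor, and collection after 3 days. Replicate 7, grouped by its title, carries neither entry, and what drives the Gli1FLAG gene is not stated in the labels. The samples are called biological replicates without a statement of how cultures were separated, so each p-value reflects only how these samples spread, which may be technical. All come from 1 line, and in mixed aggregates a change in the number of cells of a type and a change in RNA per cell cannot be told apart.

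With the agonist Sox4 and Sox11 were higher, and none of the other 8 members was called in either direction. Sox4 was higher by 4 of its 8 probe sets, 1.40-fold to 1.55-fold, and Sox11 by 3 of its 6, 1.33-fold to 1.48-fold (limma, Benjamini-Hochberg adjusted p under 0.05). The SoxB, SoxD and SoxE members have 21 probe sets, of which 9 were tested and none passed, with 1, that of Sox2, at an unadjusted p under 0.05. Sox2 had 340 ± 44.9 against 285 ± 26.9 (mean intensity ± SD, n = 4 per group here and below, retinoic acid alone first), a difference that did not pass (adjusted p = 0.254). Fold changes and log2 differences are on the log2(intensity + 16) scale, agonist minus retinoic acid alone, which understates the change of dim probe sets.

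The test covered probe sets brighter, on average over 8 arrays, than the 40th percentile of log2 values (intensity 15.1). This kept 21 of the 35 Sox probe sets and left 14 too dim. Of those 14 none was called in a fit without a filter (1.04% of all probe sets were). Of all 27022 probe sets tested 506 were called, 1.87%, with 1.14% higher and 0.733% lower. All 7 called Sox probe sets were higher, and they are also the only 7 of the 35 whose groups did not overlap with the agonist arrays above. Among all 45037 non-control probe sets 2.87% had no overlap in that direction. The 7 called probe sets measure 2 genes and are not independent of each other. By their brightest probe sets 7 of the 10 genes were tested, while Sox1, Sox8 and Sox9 were too dim. Of the 7 tested 2 were called, against 2.18% of all 13675 genes tested that way (1.31% higher and 0.87% lower).

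**Figure D1:**
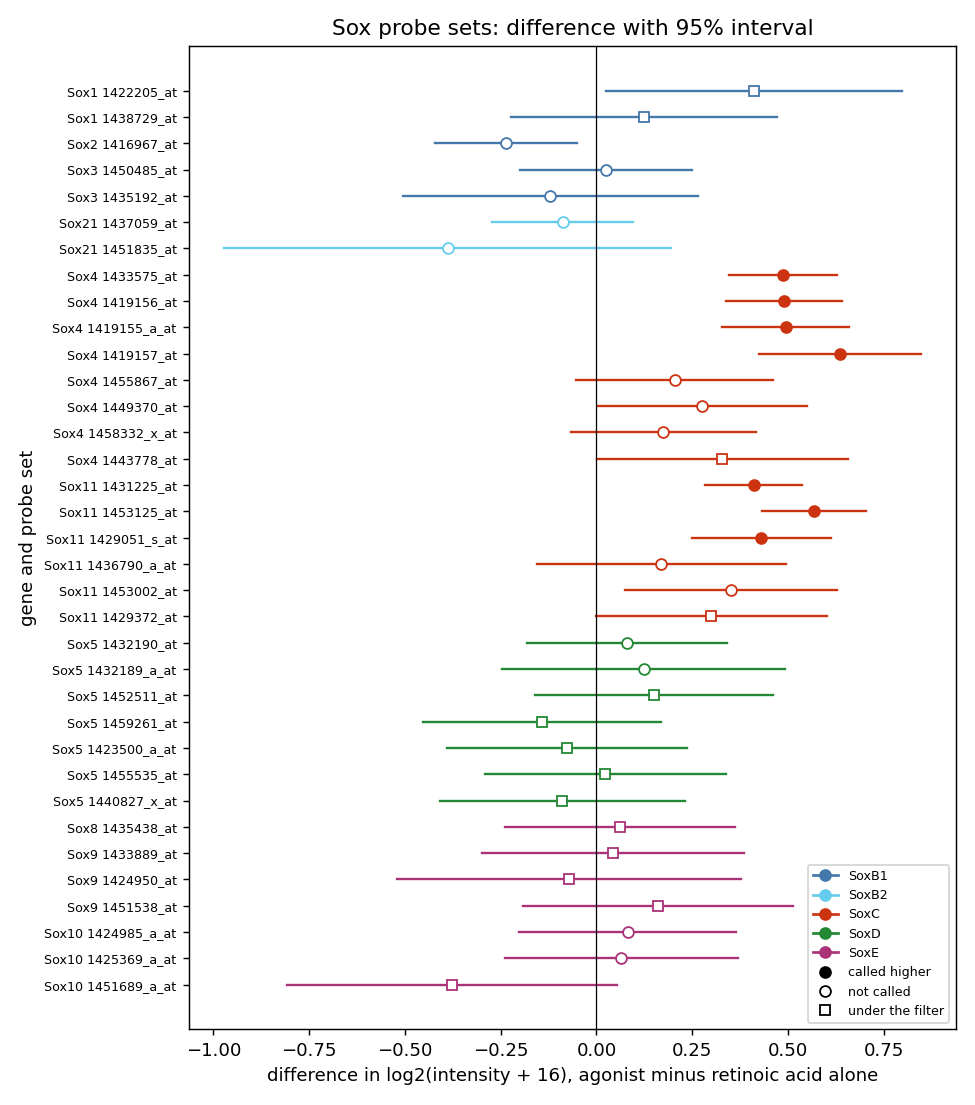
Difference in log2(intensity + 16) between groups for each of the 35 Sox probe sets (points), with its 95% interval from limma (lines). Filled circles passed the test, open circles did not, and squares are probe sets under the filter, taken from the fit without a filter. The 7 filled circles belong to Sox4 and Sox11 and lie between 0.41 and 0.64, while the intervals of most other members include 0.

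**Figure D2:**
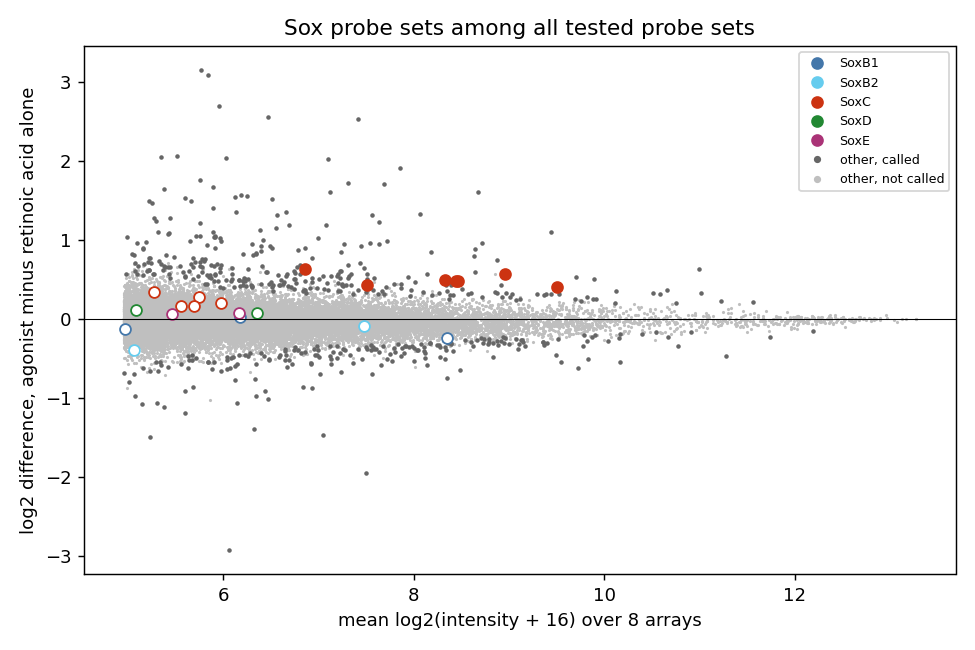
Log2 difference against mean log2(intensity + 16) over 8 arrays for the 27022 tested probe sets (grey, darker where called), with the tested Sox probe sets in colour by subgroup and filled where called. The called Sox4 and Sox11 probe sets lie among moderate rises at mean intensities of 103 and above.

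Sox4 encodes a SoxC activator of neuronal genes. The 250 bases before its annotated start, read from RefSeq (GRCm38.p6, chr13:28953700-28953949, minus strand), are printed with those of Sox11 (chr12:27342719-27342968, minus strand) because these are the members that rose together. Capitals mark CCAAT boxes (CCAAT) and E-boxes (CANNTG) on either strand, and both are written 5′ to 3′ along the gene.
Sox4: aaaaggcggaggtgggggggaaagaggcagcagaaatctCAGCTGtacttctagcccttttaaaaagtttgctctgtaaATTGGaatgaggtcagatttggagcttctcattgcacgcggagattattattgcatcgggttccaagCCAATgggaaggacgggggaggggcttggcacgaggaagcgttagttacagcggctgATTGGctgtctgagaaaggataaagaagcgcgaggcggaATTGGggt
Sox11: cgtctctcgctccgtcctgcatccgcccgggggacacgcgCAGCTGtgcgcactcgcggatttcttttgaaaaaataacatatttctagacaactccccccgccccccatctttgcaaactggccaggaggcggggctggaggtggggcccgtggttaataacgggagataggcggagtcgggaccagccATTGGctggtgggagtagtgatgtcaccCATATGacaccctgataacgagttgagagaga
The Sox4 window held 4 CCAAT boxes, and 0.84% of the 32851 RefSeq promoters of this length held at least 4, while Sox11 held 1 and 33.8% held at least 1. An E-box was found once in Sox4 and at 2 positions in Sox11, while 66.2% of promoters held 1 or more and 31.8% held at least 2. No Gli binding consensus (GACCACCCA, either strand), the motif of the Hh pathway's own factors, was in either window, and 0.225% of promoters held it. The motifs were chosen after the promoters were seen, so these shares describe the windows and test nothing. Matches are letters in a window and were not tested for binding.

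The brightest Sox4 probe set, 1433575_at, read 285, 292, 294 and 261 in retinoic acid replicates 1 to 4. With the agonist, replicates 5 to 8 read 423, 393, 424 and 373. Every agonist array lay above every array with retinoic acid alone, and the log2 difference was 0.49 (SE 0.067, limma adjusted p = 0.000265). Probe set 1419156_at went from 279 ± 10.1 to 400 ± 38.7 (adjusted p = 0.000559), and 1419155_a_at from 255 ± 26.5 to 365 ± 25.6 (adjusted p = 0.00128). The called Sox4 probe set with the greatest change was 1419157_at, at 64.4, 90.7, 69.2 and 86.0 with retinoic acid alone and 120, 136, 124 and 134 with the agonist. Its groups were apart by more than either group's range, with a log2 difference of 0.64 (SE 0.100, adjusted p = 0.00115). The annotation lists 1 common representative sequence for 4 Sox4 probe sets, of which these last 3 are called and 1449370_at is not, so they read the same stretch of annotation more than once. Per RefSeq, Sox4 lies inside the span of the predicted gene Gm46405, and whether the probe sets tell the 2 apart was not examined.

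The 4 uncalled Sox4 probe sets were dimmer, with means of 7.27 to 47.7 over all arrays against 103 to 343 for the called ones. Their log2 differences were all above 0, from 0.17 to 0.33. Probe set 1449370_at had 33.1 ± 5.96 against 43.7 ± 9.52 (adjusted p = 0.396), and 1455867_at had 43.3 ± 8.55 against 52.1 ± 7.51 (adjusted p = 0.546). Probe set 1458332_x_at had 33.0 ± 4.54 against 39.4 ± 5.69 (adjusted p = 0.599). In each of these pairs the groups overlapped. The probe set 1443778_at, under the filter, read 4.12, 3.73, 4.50 and 5.39 against 13.6, 16.1, 4.27 and 6.56. Its agonist arrays were split, with replicates 5 and 6 above all others and replicate 7 inside the baseline range. Averaged over all 8 probe sets on the log2 scale, Sox4 was 0.39 higher (limma over gene means, adjusted p = 0.0139).

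Sox11, a close relative of Sox4 in the SoxC subgroup, rose by its 3 brightest probe sets. Without the intensity trend in the fit only 1453125_at of these stayed called, with 1431225_at at adjusted p = 0.0531 and 1429051_s_at at 0.0702. Probe set 1453125_at gave the lowest p of any Sox probe set. It read 368, 395, 445 and 365 with retinoic acid alone and 598, 600, 586 and 575 with the agonist. The agonist arrays were close together and well above the highest baseline array, and the log2 difference was 0.57 (SE 0.065, adjusted p = 2.85e-05). Probe set 1431225_at read 590, 620, 674 and 573 against 842, 803, 875 and 764, a log2 difference of 0.41 (SE 0.060, adjusted p = 0.000559). Probe set 1429051_s_at, whose suffix marks probes shared by several transcripts, read 128, 144, 157 and 137 against 202, 183, 222 and 179 (log2 difference 0.43, SE 0.086, adjusted p = 0.00991). In both of these the lowest agonist array again lay above the highest baseline array. The annotation lists the representative sequence of 1453125_at for 2 Sox probe sets, and likewise that of 1429051_s_at. That of 1431225_at is listed for 1 Sox probe set alone. Probe sets 1453125_at and 1429051_s_at thus need not be separate readings, and all 3 measure the same gene.

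The other 3 Sox11 probe sets were dim, with means of 14.7 to 32.0, and their log2 differences of 0.17 to 0.35 did not pass. Probe set 1453002_at read 16.3, 14.96, 16.5 and 26.2 against 29.1, 29.4, 28.7 and 23.7 (adjusted p = 0.256). Baseline replicate 4 and agonist replicate 8 crossed there, while the other arrays were separated. Probe set 1436790_a_at had 29.3 ± 9.59 against 34.7 ± 8.20 (adjusted p = 0.723), and its groups overlapped. Under the filter, 1429372_at had 11.5 ± 2.83 against 17.9 ± 4.19. The mean over all 6 Sox11 probe sets was 0.37 higher with the agonist on the log2 scale (limma over gene means, adjusted p = 0.0183).

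**Figure D3:**
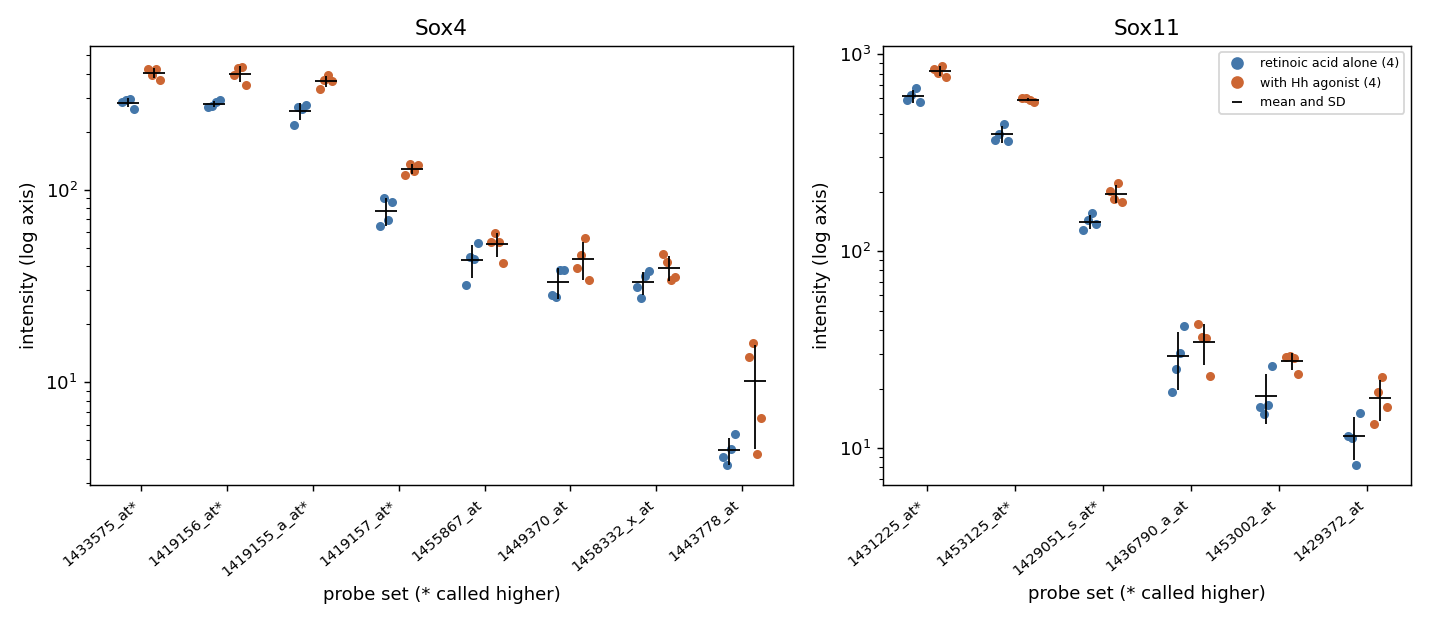
Intensity on a log axis of each Sox4 and Sox11 probe set in the 4 arrays with retinoic acid alone (blue) and the 4 with the agonist (orange), with mean and SD in black and an asterisk where the probe set was called. The groups are apart for the 4 called Sox4 and 3 called Sox11 probe sets and overlap for the dimmer ones.

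Arrays were hybridised on 2 days, and the Sox4 and Sox11 differences were seen on each. On the first day 1 array of each group was run on the same chip lot and fluidics station, and the 7 called probe sets differed by 0.50 to 0.76 on the log2 scale, a value with no test. On the second day, with 3 arrays per group, they differed by 0.37 to 0.60. Of these, 6 passed limma's test on that day alone, and Sox11 probe set 1429051_s_at did not (adjusted p = 0.120). On that second day each group had its own fluidics station, so station and group cannot be told apart there. Leaving out any 1 of the 8 arrays kept all 7 calls.

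Many genes of neurons were higher in the same arrays, though not all. In a list of 18 pan-neuronal genes, 17 were tested, 11 rose, 1 fell and 5 did not pass. The 17 had a median log2 difference of 0.97, against -0.0059 over all 13675 genes tested. Of those 13675 genes 1.31% were called higher and 0.87% lower, the shares to set beside each list count here and below. The lists were chosen with earlier results of these data known. Tubb3, the neuronal tubulin that SoxC factors activate, went from 135 ± 19.5 to 283 ± 31.6, and Stmn2, a microtubule regulator of growing axons, from 219 ± 25.3 to 698 ± 25.3. The member that fell was Dpysl3, a growth cone gene (265 ± 24.1 to 204 ± 15.5). The brightest of those that did not pass were Rbfox3 (95.1 ± 3.57 against 92.9 ± 9.63), Syp (66.5 ± 9.95 against 77.2 ± 12.8) and Dcx (68.8 ± 3.74 against 67.9 ± 1.81). Of 12 tested genes of the step from progenitor to neuron 7 were called higher and none lower, with 10 differences above 0 and 2 below 0. Neurod4 (6.49 ± 2.13 to 78.0 ± 5.74) was tested only through its agonist arrays. Neurog1, tested only through its baseline arrays, had 22.3 ± 3.32 against 11.9 ± 3.76 (limma adjusted p = 0.141). Every Neurog1 agonist array lay below every baseline array. Of the 10 genes above the filter in both groups 6 were called higher and none lower, with a median of 0.51. Neurog2, a proneural factor, went from 45.3 ± 4.90 to 100 ± 8.75. The mean level of the pan-neuronal list was 6.47 to 6.53 with retinoic acid alone and 7.21 to 7.29 with the agonist, and that of the proneural list 5.45 to 5.50 and 5.86 to 5.97 (log2 scale). Whether the number of neurons takes part in the Sox4 and Sox11 differences was not tested.

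Likeness was measured as the Euclidean distance over the 8 arrays between log2 values, each probe set centred on its own mean. The genes nearest to Sox4 were Mapre2, a microtubule end-binding gene (distance 0.151), Basp1, a growth cone protein gene (0.154), and Sox11 (0.156). Nearest to Sox11 were Idh1, the cytosolic isocitrate dehydrogenase gene (0.164), Cadm4, an adhesion gene (0.184), and Hsd17b7, a gene of cholesterol synthesis (0.196). The Sox11 probe set in the first group is 1431225_at. Values were centred but not scaled, so the distance depends on the size of the difference between groups. All of these neighbours were called higher, with log2 differences from 0.41 (Sox11) to 0.58 (Hsd17b7).

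Sox2, a SoxB1 factor of progenitors, has a single probe set, which read 321, 375, 286 and 380 with retinoic acid alone and 290, 266, 322 and 264 with the agonist. The groups overlapped, since baseline replicate 3 was lower than agonist replicates 5 and 7. The log2 difference was -0.24 (SE 0.088), a fold of 0.746 to 0.966 by its 95% interval without adjustment, and the limma adjusted p was 0.254. Over the other settings tried the adjusted p lay between 0.0615, without baseline replicate 3, and 0.528. Sox2 lies inside the annotated span of the noncoding gene Sox2ot, whose own probe set was dim, at 3.94 ± 3.35 and 4.87 ± 2.19.

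Sox2 also acts with Pou5f1 in stem cells, and genes of pluripotency are given beside it. Of 16 such genes, all tested, 2 fell (Klf2 and Dppa4), none rose and 14 did not pass, with 13 differences below 0, 3 above 0 and a median log2 difference of -0.19. Klf2, a factor of naive stem cells, went from 131 ± 21.7 to 91.2 ± 11.04, and Dppa4, a nuclear protein gene of pluripotent cells, from 179 ± 13.4 to 134 ± 3.12. The groups overlapped for Klf2 and did not for Dppa4. Over the alternatives the number that fell ranged from 0 to 6. Dppa5a, the brightest gene of the list, had 3962 ± 167 against 3944 ± 45.7 (adjusted p = 0.972). Dppa3, a germline and stem cell gene, had 516 ± 68.6 against 444 ± 6.81 (adjusted p = 0.275), while Esrrb, an orphan receptor gene, had 399 ± 47.5 against 411 ± 64.7. The list's mean level was 7.44, 7.55, 7.24 and 7.64 in replicates 1 to 4 and 7.30, 7.23, 7.38 and 7.21 in replicates 5 to 8 (log2 scale). Ranked by either measure, the 8 arrays stood in the same order except that replicates 1 and 7 changed places. The part of undifferentiated cells in the Sox2 values was not tested. Of 16 neural progenitor genes, all tested, 4 rose, 1 fell and 11 did not pass, with a median of 0.038. The mean level of that list was 6.66 to 6.77 with retinoic acid alone and 6.82 to 6.86 with the agonist (log2 scale). Hey1, a Notch target, had the largest rise of the list, from 44.5 ± 7.81 to 134 ± 10.9. Fabp7, a fatty acid binding protein gene of radial glia, went from 24.6 ± 4.27 to 51.1 ± 5.67, and Pax6, a factor of dorsal and intermediate progenitors, from 41.3 ± 5.71 to 11.6 ± 3.58, under the filter in agonist arrays. Nes, the intermediate filament of neural progenitors, had 262 ± 26.7 against 268 ± 5.09.

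**Figure D4:**
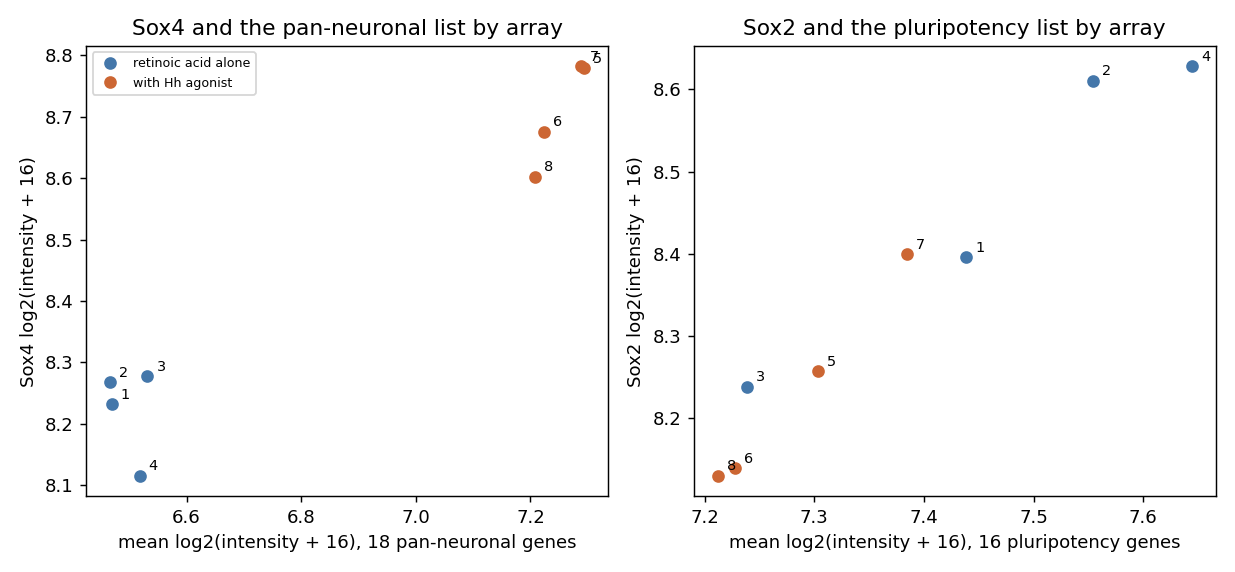
Log2(intensity + 16) of Sox4 probe set 1433575_at against the mean of 18 pan-neuronal genes (left), and of Sox2 against the mean of 16 pluripotency genes (right), 1 point per array with its replicate number. Sox4 and its list separate the groups, while Sox2 and its list vary within both groups and overlap between them. The points share arrays and normalization.

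Sox3, which overlaps with Sox2 in progenitors, differed by little. Probe set 1450485_at read 57.6, 61.9, 57.6 and 46.5 against 51.5, 52.3, 67.9 and 57.0. The groups overlapped throughout, with a log2 difference of 0.025 and a 95% interval from -0.20 to 0.25 (adjusted p = 0.959). The dimmer probe set 1435192_at had 17.1 ± 4.57 against 15.1 ± 8.90 (adjusted p = 0.854). Sox1, which marks the earliest neural plate cells, was dim by both probe sets and lies inside the span of the noncoding gene Sox1ot. Probe set 1422205_at read 3.36, 10.2, 9.58 and 15.6 against 32.4, 19.0, 12.1 and 11.1. Agonist replicates 5 and 6 were above every baseline array and the other agonist arrays were not (adjusted p = 0.475 without a filter). The other, 1438729_at, had 5.71 ± 4.14 against 7.62 ± 4.10.

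Sox21, the SoxB2 antagonist of the progenitor state, had 169 ± 10.99 against 158 ± 18.8 by probe set 1437059_at. By array it read 154, 167, 175 and 178 and then 174, 147, 174 and 138, so that the groups overlapped, and the interval of the log2 difference ran from -0.27 to 0.096 (adjusted p = 0.749). A second probe set, 1451835_at, spread over 5.21 to 39.2 at baseline and over 4.85 to 36.0 in agonist arrays. That spread left an interval from -0.97 to 0.20 (adjusted p = 0.638).

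Sox5, which modulates other Sox factors without an activation domain of its own, had 2 of 7 probe sets above the filter. The brighter, 1432190_at, read 78.1, 54.5, 72.0 and 52.3 against 85.3, 56.4, 67.6 and 65.3, a log2 difference of 0.080 (interval -0.18 to 0.34, adjusted p = 0.858). The other, 1432189_a_at, had 17.2 ± 6.47 against 20.2 ± 7.46 (adjusted p = 0.840). In both the groups overlapped. The remaining 5 had single-array intensities from 1.25 to 19.3 and log2 differences from -0.14 to 0.15, of both signs.

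Of the 7 SoxE probe sets 5 were under the filter, and both that were tested belong to Sox10. Sox9, needed for the onset of glial fate and for crest and cartilage, was under the filter by all 3 probe sets, with single-array intensities from 0 to 24.4 and log2 differences from -0.071 to 0.16. Sox8 had 13.7 ± 0.865 against 15.3 ± 4.68 by its only probe set, also under the filter. Sox10, a factor of crest derivatives and oligodendrocytes, was tested by 2 of 3 probe sets. Probe set 1424985_a_at read 65.3, 52.7, 63.2 and 38.1 against 61.4, 65.0, 64.7 and 43.3, so that 1 array of each group, replicates 4 and 8, was low and the groups overlapped. Its log2 difference was 0.082 (interval -0.20 to 0.37, adjusted p = 0.868). Probe set 1425369_a_at had 27.6 ± 6.61 against 29.6 ± 7.45 (adjusted p = 0.909). The third, 1451689_a_at, under the filter, had 15.5 ± 9.63 against 8.16 ± 6.86 and went the other way from both.

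**Figure D5:**
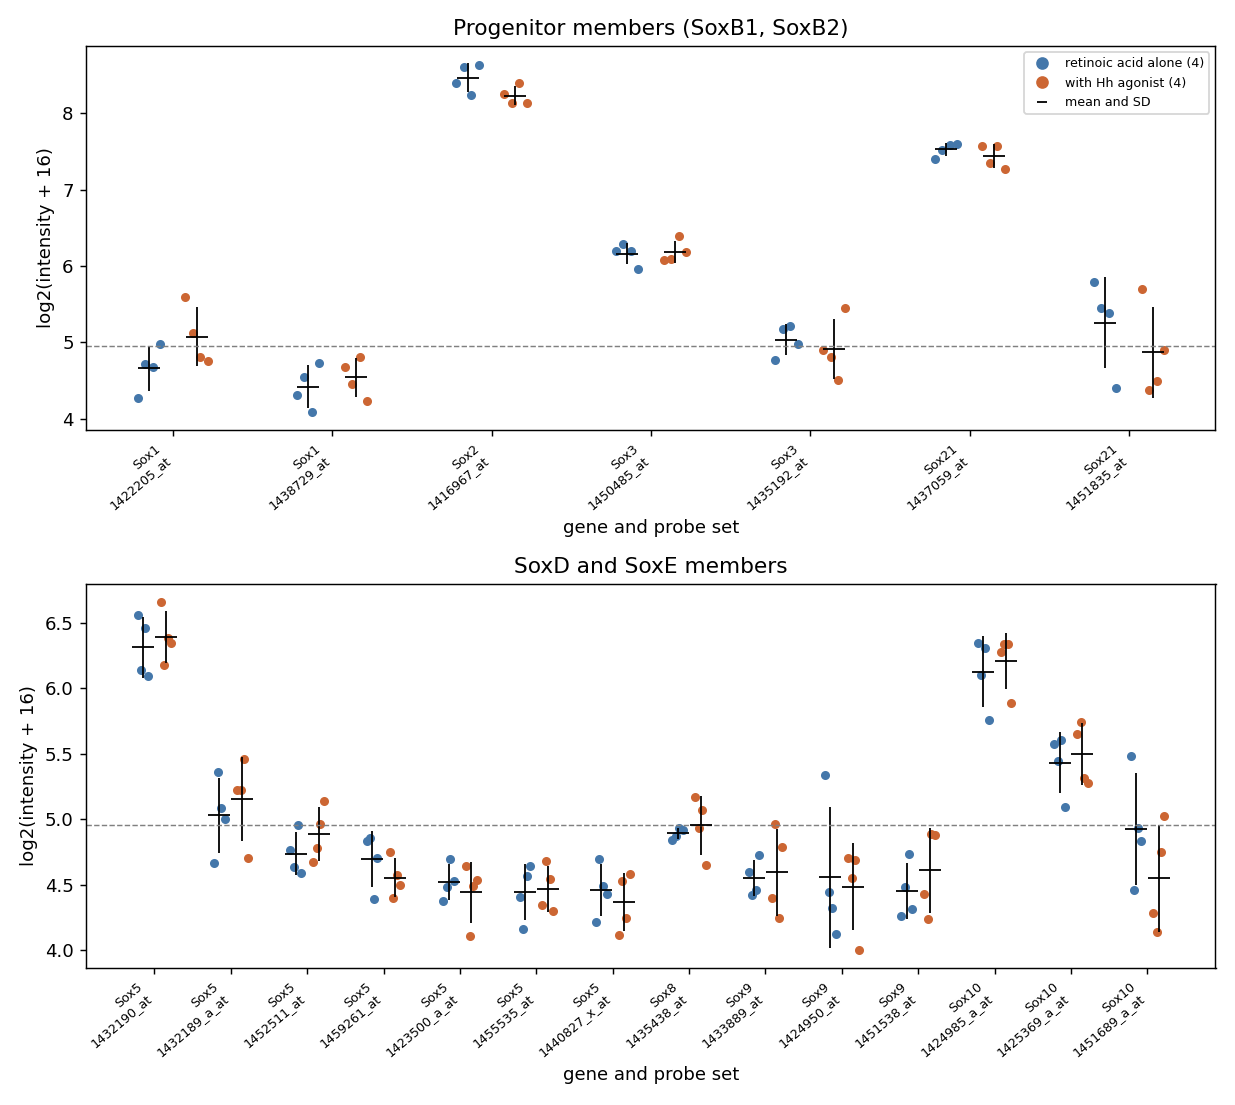
Log2(intensity + 16) of each probe set of Sox1, Sox2, Sox3 and Sox21 (top) and of Sox5, Sox8, Sox9 and Sox10 (bottom) by array, with mean and SD in black. The dashed line is the filter level, an intensity of 15.1. The groups overlap for all 21 probe sets, and 12 of them have a mean under the line.

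Of 14 listed crest genes 3 had no probe set of their own, 4 were under the filter, 7 were tested and none was called, with a median log2 difference of 0.057. Those under the filter were Foxd3, an early crest specifier (12.5 ± 3.79 and 14.6 ± 3.86), Ets1, Mitf and Twist1. Ednrb, a crest receptor also made by neural progenitors, had 120 ± 10.1 against 136 ± 7.57. The mean level of the list was 5.31 to 5.45 with retinoic acid alone and 5.27 to 5.61 with the agonist (log2 scale). Snai1, a repressor of epithelial genes, had 43.5 ± 10.2 against 40.3 ± 3.32, and Tfap2a, a crest and surface ectoderm factor, 34.5 ± 6.10 against 43.4 ± 7.11. Calling Sox8, Sox9 and Sox10 crest members thus follows their known roles, and no crest cells were identified in these bulk samples.

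The rest of the Sox family showed no calls either. Of 9 other Sox genes 7 were tested and none passed limma's test, while 1 had an unadjusted p under 0.05. That gene was Sox17, a SoxF gene of endoderm and endothelium, which had 41.5 ± 4.14 against 31.2 ± 3.73 with no overlap between groups (adjusted p = 0.269). Sox12, the third SoxC gene, had 79.5 ± 8.47 against 74.1 ± 6.47, a log2 difference of -0.083 with an interval from -0.28 to 0.12 (adjusted p = 0.798). That interval lies below those of the called Sox4 and Sox11 probe sets, but these were picked by their differences, so this tests nothing. It overlaps those of uncalled ones, such as Sox4 probe set 1455867_at (-0.052 to 0.46). The 2 dimmer Sox12 probe sets, under the filter, went opposite ways, with log2 differences of -0.36 and 0.44. Sox15 had 216 ± 19.4 against 194 ± 13.5, Sox14 107 ± 7.88 against 110 ± 11.5, and Sox13 56.9 ± 4.34 against 62.7 ± 10.2. Sox6 had 42.6 ± 6.94 against 39.3 ± 10.3 and Sox18 22.5 ± 9.39 against 32.3 ± 13.6. Sox7 and Sox30 were under the filter.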

How the data were processed

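Total RNA from 8 samples was measured on 1-colour Affymetrix Mouse430_2 arrays (chip type per the file headers). The authors deposited linear intensities, 1 for each probe set in each sample. Probe summarisation, background correction and normalization are not given in the sources used here. Median intensities were 21.6 to 22.6, no detection calls were used, and precision is bounded by the 8 arrays. Of 45101 probe sets 64 are controls, 34945 name 1 gene, 932 name several and 9160 are not listed in the platform annotation. Groups and replicate numbers came from sample titles, and hybridisation day, chip lot and fluidics station from the instrument records.

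Intensities were turned into log2(intensity + 16), filtered at the 40th percentile of mean log2 and compared with limma 3.58.1 in R 4.3.3 (lmFit, eBayes with an intensity trend, two-sided, Benjamini-Hochberg over 27022 probe sets). Every adjusted p is limma's. Values of probe sets under the filter come from the fit without one. Genes other than the Sox members are given by their brightest probe set. Named are all Sox genes, list genes that were called or among the 3 brightest uncalled of their list, and the 3 genes nearest to each called member. Foxd3, Ets1, Mitf, Twist1, Neurog1, Sox2ot and Meg3 fall outside this rule and were named after their values were seen. Only those that bear on the Sox results are printed. Members and lists were chosen with earlier results of these data known, and motifs after the promoters were seen. Simulated data with known changes were used to test the fit. RefSeq promoters matched 7 of the 10 members. Python 3.11.15, pandas 2.3.3, numpy 2.4.6 and matplotlib 3.10.9 made tables and plots. Alternatives were quantile normalization, median centring, adding 1 or 64, a filter at the 60th percentile or none, array weights, a fit without the intensity trend, the day as a block, each day alone, the mean of probe sets, and leaving out each array.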

Additional observations from a re-analysis of the deposited data

Results flagged for a closer look

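Each of the 70 groups of 4 arrays, 2 for each Sox probe set, was examined for an array far from the other 3, and 3 were found, where chance gives about 1 in 20. In Sox11 probe set 1453002_at, baseline replicate 4 read 26.2 while the others read 14.96 to 16.5. In the same probe set agonist replicate 8 read 23.7 while the others read 28.7 to 29.4. In Sox10 probe set 1424985_a_at agonist replicate 8 read 43.3 while the others read 61.4 to 65.0. None of these probe sets was called.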

How the results depend on the processing

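All 7 calls of Sox4 and Sox11 probe sets held under quantile normalization, median centring, both other pseudocounts, both other filters, array weights and the day as a block, and 7 to 7 held without any 1 array. Without an intensity trend 5 held, with Sox11 probe sets 1431225_at and 1429051_s_at at adjusted p = 0.0531 and 0.0702, and on the second day alone 6 held. Every Sox4 and Sox11 call kept its direction in all of these. No other Sox probe set or gene was called under any alternative run (0 to 0 of the other Sox genes without any 1 array). Over all probe sets the calls fell from 506 to 264 without an intensity trend (197 higher, 67 lower) and to 266 on the second day alone (192 higher, 74 lower). They ranged from 298 to 615 without any 1 array, with 214 to 299 higher and 84 to 316 lower, and lower calls were 84 without agonist replicate 6, 85 without baseline replicate 2, 101 without agonist replicate 8, 120 and 125 without replicates 4 and 5 in turn and 316 without baseline replicate 3. The first day, with 1 array per group, gave values only. No paired analysis was possible because the groups share no replicate numbers. Low signal limits Sox1, Sox8 and Sox9, which were fitted without a filter only and not called.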

Other observations

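Other settings in which Sox5, Sox9 and Sox10 are known to act were also measured. Of 14 tested genes of oligodendrocytes and astrocytes 2 rose, Olig1 (14.5 ± 5.39 to 69.5 ± 6.60) and Olig2 (28.5 ± 4.56 to 116 ± 14.2), both also genes of motor neuron progenitors, and 12 did not pass. Olig1 was tested only through its agonist arrays. Mean levels of the list were 5.65 to 5.78 with retinoic acid alone and 5.85 to 5.95 with the agonist (log2 scale). The median log2 difference of its tested genes was -0.014, with 7 differences above 0 and 7 below 0. Mbp, a myelin protein gene, had 135 ± 6.90 against 141 ± 11.01, and Slc1a2, an astrocyte glutamate transporter gene, 136 ± 18.6 against 136 ± 6.13. None of 5 tested cartilage genes passed, with 3 differences above 0, 2 below 0 and a median of 0.13. Col9a1, a cartilage collagen gene, had 72.4 ± 12.2 against 93.0 ± 8.02 with no overlap (adjusted p = 0.203), and Col2a1, a direct Sox9 target, had 67.6 ± 11.2 against 49.4 ± 12.1 (adjusted p = 0.251). Of 9 tested endoderm genes 1 rose, the collagen gene Col4a1, and 8 did not pass. Their differences were above 0 for 7 and below 0 for 2, with a median over the 9 of 0.093. The mean level of that list, taken over 11 genes of which 2 were under the filter, was 5.49 to 5.58 against 5.60 to 5.71. None of 9 mesoderm and endothelium genes passed. Of the 2073 genes with at least 3 tested probe sets, 17 had at least 3 called higher, Sox4 and Sox11 among them. At least 4 were called higher for 2 genes, Sox4 and Meg3, an imprinted noncoding gene. Such a count also depends on how many probe sets a gene has (8 for Sox4 and 11 for Meg3), and probe sets of 1 gene are not independent.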
